A study of Mus musculus with 4 samples.

Results

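The immediate-early genes of the AP-1, EGR and NR4A families were examined in CD8αβ+ T cells of the mouse, comparing intraepithelial lymphocytes (CD8αβ+ IELs) of the small intestine with splenic lymphocytes (CD8αβ+ SPLs). The 10 genes are Fos, Fosb, Jun, Junb, Jund, Egr1, Egr2, Egr3, Atf3 and Nr4a1. They were taken by gene name, together with every probe that the array annotation assigns to them, which gave 12 probes of 41174 that are not controls, or 10 of 27376 gene names. All 12 probes were bright enough to be tested, out of 27902 tested probes.

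Both groups were sorted from male wild-type (WT) mice of 8 to 12 weeks of age, with 2 samples per group and each sample on its own Agilent 1-color array. The labels give no treatment, and the study's methods give a C57BL/6 background for its wild-type mice housed free of specific pathogens. IELs were freed from the intestine by repeated warm shaking in a medium with a calcium chelator and then separated on a density gradient, whereas the methods give no warm incubation for spleens, which were passed through a mesh and cleared of red blood cells by lysis. Tissue and isolation procedure therefore cannot be told apart in any value given here. According to the study each sample was a pool sorted from several mice. Single animals therefore cannot be compared. The p-values rest on the spread between 2 pools per group, which the fit moderates with the spread of all tested probes. The sort gate took cells positive for CD45, CD3, both CD8 chains and the αβ T cell receptor.

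Immediate-early genes are transcribed within minutes of a signal such as T cell receptor engagement, growth factor or stress, without the need for new protein synthesis. FOS and JUN proteins join through leucine zippers into the dimer AP-1, EGR proteins bind GC-rich DNA through zinc fingers, and NR4A proteins are nuclear receptors that act without a known physiological ligand. In CD8+ T cells these factors are known for coupling antigen receptor signals to activation, tolerance and exhaustion. The same genes are also known to be switched on while a tissue is taken apart into single cells, so that a high level in sorted cells need not be the level in the living tissue.

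Promoters of immediate-early genes are known for elements that bind CREB/ATF factors and serum response factor, which are in place before the signal arrives. RefSeq (GRCm38.p6) windows of 250 bases before the transcription start were searched for 8 of the 10 genes. No window of Egr1 or Egr3 was searched, so the counts given below do not cover these genes. The Fos and Nr4a1 windows are printed because both IEL samples lay above both SPL samples for these genes, and a 30-base site of Egr2 because both IEL samples lay below. Each runs 5′ to 3′ along the gene, in lower case, with capitals for TGACG or its complement CGTCA (the core of the CREB/ATF element), for CGCCCCCGC (the complement of the EGR-type letters GCGGGGGCG) and, in Egr2, for the CArG box, the element bound by serum response factor.
Fos, chr12:85473640-85473889, plus strand: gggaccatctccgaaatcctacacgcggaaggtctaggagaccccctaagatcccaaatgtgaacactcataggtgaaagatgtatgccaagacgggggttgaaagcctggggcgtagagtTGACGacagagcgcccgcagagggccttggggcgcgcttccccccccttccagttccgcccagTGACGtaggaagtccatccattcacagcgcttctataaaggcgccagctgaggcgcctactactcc
Nr4a1, chr15:101266596-101266845, plus strand: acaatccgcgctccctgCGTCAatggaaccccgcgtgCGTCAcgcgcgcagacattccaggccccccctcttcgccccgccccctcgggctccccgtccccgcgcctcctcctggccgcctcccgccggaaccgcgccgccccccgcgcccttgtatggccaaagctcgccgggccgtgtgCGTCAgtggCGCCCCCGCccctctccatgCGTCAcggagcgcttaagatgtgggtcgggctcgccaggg
Egr2, chr10:67537797-67537826, plus strand: CCATATATGGgcagcgaCGTCAcgggtatt

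TGACG, searched on both strands, was present in the windows of 6 of the 8 genes (Atf3, Egr2, Fos, Fosb, Junb and Nr4a1), while 17.9% of all 32536 promoter windows of that length hold it. The letters GCGGGGGCG were found in 2 genes, Fosb and Nr4a1, against 2.6% of all windows. The CArG box was found in 1 gene, Egr2, in 4 of its 5 windows (it has 5 listed starts), against 1.48% of all windows. Some of these Egr2 windows overlap and hold the same box, so they are not separate finds. A gene was counted when any of its windows held the letters, while the shares are per window, which gave Egr2 more chances. CCAAT was present in 3 genes (Egr2, Jun and Junb), against 33.8% of all windows. The full palindrome TGACGTCA, which contains TGACG, and the AP-1 letters TGANTCA were in the windows of 0 of the 8 genes, as were GCGTGGGCG and the NR4A-type letters AAAGGTCA, against 1.56%, 6.73%, 0.541% and 1.35% of all windows. These matches are letters in a window and are not measured sites, and letters absent here may lie outside the window.

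The 4 arrays did not sort by tissue alone. IEL replicate 1 and SPL replicate 2 lay on slide 1, and IEL replicate 2 and SPL replicate 1 on slide 2. Over the tested probes IEL replicate 2 correlated more closely with SPL replicate 1 on the same slide (r = 0.992) than with IEL replicate 1 (r = 0.946). It was also closer to SPL replicate 2 on the other slide (r = 0.973) than to IEL replicate 1. IEL replicate 1 stood farthest from the rest (r = 0.911 to 0.946). The sample labels were used as given. The 75th percentile of the processed intensity, which was used to scale each array, came to 312 units in IEL replicate 1, 435 in IEL replicate 2, 479 in SPL replicate 1 and 605 in SPL replicate 2. All 13 measured T cell markers were above background on every array. Of the markers of other cells, 21 of the 22 epithelial ones had both IELs above both SPLs. Most B cell, myeloid and erythroid ones were low in IEL replicate 1 alone. All 22 epithelial markers were higher in the mean of the IELs. Their summed scaled intensity was 15.2 to 92.2 in IELs against 7.85 to 10.6 in SPLs. In SPL replicate 2, 17 of them were above background, and on each other array 22. The 9 B cell markers summed to 4.1 in IEL replicate 1, where 5 of them were above background, but to 26.8 to 33.9 on the other 3 arrays. The 7 erythroid markers summed to 1.48 in IEL replicate 1, where 4 of them were above background, and to 94.9 to 147 on the others. The 14 myeloid markers summed to 57.3 in IEL replicate 1, where 11 were above background, and to 74.5 to 91.1 on the others. This sum hides a larger fall of most of them, since the bright Lyz2 did not fall (log2 level 5.56 there, 4.81 to 5.21 on the others). The median log2 level of the myeloid markers was -4.04 in IEL replicate 1, against -0.74 to 0.53 on the others. The sort gate was meant to exclude such cells, but whether it did so here was not tested. Whether RNA of other cells gave part of the signal of the immediate-early genes was not tested either. In sorted bulk RNA fewer cells of a type and less RNA per cell cannot be told apart.

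The 10 genes did not move together between the tissues. The mean was higher in IELs for 7 genes (Fos, Fosb, Jun, Junb, Jund, Egr1 and Nr4a1) and lower for 3 (Egr2, Egr3 and Atf3). By probe this was 7 higher and 5 lower, where 49.9% of all tested probes were higher and 50.1% lower. The 10 genes had a median log2 difference of 0.11, beside a median of 0 over all tested probes. By limma with Benjamini-Hochberg adjustment over all tested probes, 0 of the 12 member probes were called higher and 0 lower in IELs, where the share called over all probes was also 0% in each direction and the smallest adjusted p of any probe was 0.634. At an unadjusted limma p below 0.05 the calls were 1292 probes higher (4.63%) and 307 lower (1.1%), and the unpaired test named in the methods called 469 and 348, while 0 of the 12 member probes passed limma's unadjusted threshold. Both IEL samples lay above both SPL samples for 2 member probes (24.4% of all tested probes) and below both for 2 (24.6%), so the members separated no more often than probes at large. On both slides alike, 4 of the 12 probes were higher (35.8% of all probes) and 4 lower (35.9%). A comparison of 2 samples against 2 cannot give an exact two-sided permutation p below 0.33.

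**Figure D1:**
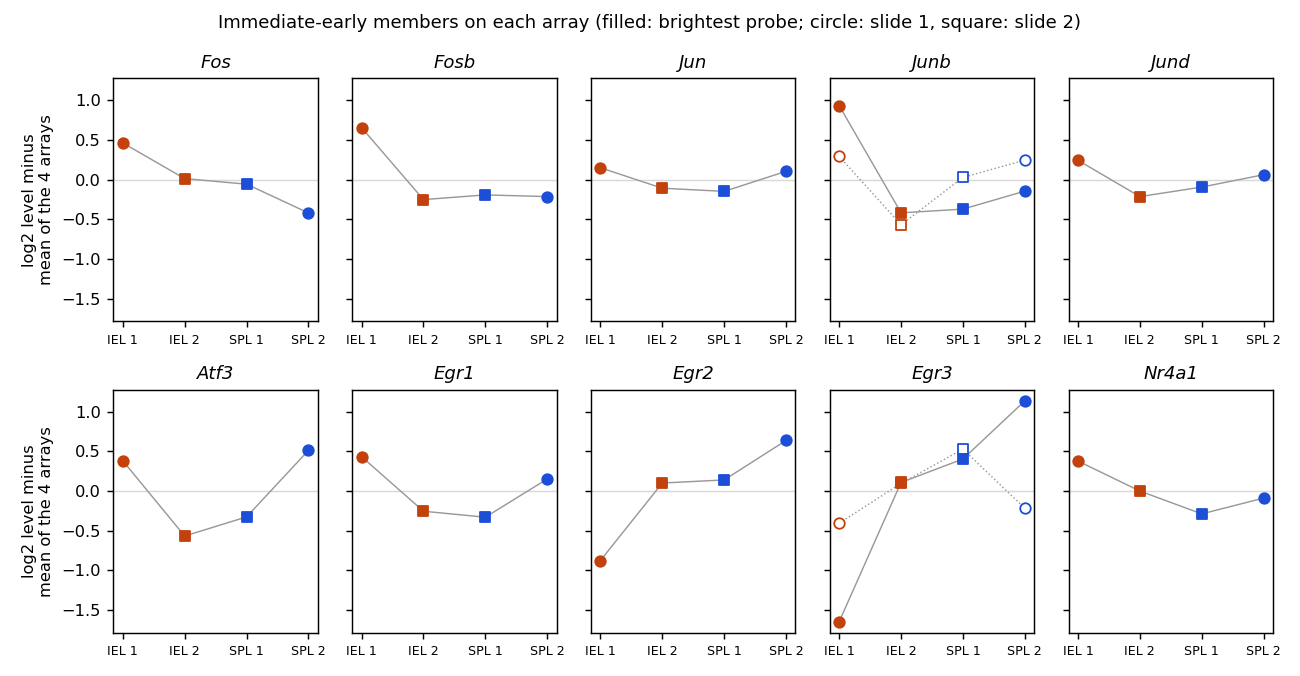
Level of each gene on each array, as log2 of the processed intensity minus the array's 75th percentile, drawn relative to the mean of the 4 arrays for that probe. IELs are orange and SPLs blue, circles are slide 1 and squares slide 2. Open symbols are the second probe of Junb and Egr3, the one with the lower mean log2 level over the 4 arrays. Fos and Nr4a1 have both IEL points above both SPL points, and Egr2 and the brighter Egr3 probe have both below.

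Among the FOS proteins, the partners that need JUN to bind DNA, Fos showed the clearest order. Its probe (mm9 chr12:86817900-86817959, plus strand, 10 spots per array) gave processed intensities of 12400 and 12600 units in IEL replicates 1 and 2, and of 13300 and 13000 units in SPL replicates 1 and 2. These unscaled values spanned only 1.07-fold, with both IELs below both SPLs. After scaling, the log2 levels were 5.31 and 4.86 in IELs and 4.79 and 4.42 in SPLs, so both IELs now lay above both SPLs. The log2 difference was 0.48 with a standard error of 0.30 and an adjusted p of 0.634 (limma, n = 2 per group), with a 95% interval of -0.32 to 1.27. It was 0.88 on slide 1 and 0.07 on slide 2, and -0.07 without scaling between arrays and 0.94 with normexp. Leaving out IEL replicate 1 gave 0.25, and leaving out IEL replicate 2 gave 0.70. The sign of the Fos difference thus rested on the correction for the overall brightness of the arrays.

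Fosb, a close relative of Fos that is induced by the same signals, gave 4050 and 3010 units in IELs and 3450 and 4290 units in SPLs. The scaled log2 levels were 3.70 and 2.79 in IELs and 2.85 and 2.83 in SPLs. Only IEL replicate 1 stood out, and the groups overlapped. On the log2 scale the IELs were higher by 0.41 (SE 0.38, limma adjusted p = 0.688), a mean of 0.87 from slide 1 and -0.06 from slide 2.

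Among the JUN proteins, which bind DNA alone or with a FOS partner, Jun was nearly level. Its probe (10 spots per array) gave 1490 and 1740 units in IELs and 1860 and 2800 units in SPLs. The scaled log2 levels were 2.26 and 2.00 in IELs and 1.96 and 2.21 in SPLs, with overlapping groups. Their log2 difference was 0.04 (SE 0.25, limma adjusted p = 0.954), with a 95% interval of -0.64 to 0.73 that leaves room for a change in either direction, and it was 0.04 on each slide.

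Jund, the JUN gene that is expressed broadly without stimulation, gave 35900 and 36400 units in IELs and 43600 and 61300 units in SPLs. Its scaled log2 levels were 6.85 and 6.39 in IELs and 6.51 and 6.66 in SPLs. The groups overlapped, with a log2 difference of 0.03 (SE 0.28, limma adjusted p = 0.97) and a 95% interval of -0.71 to 0.78.

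Junb, a JUN gene that in T cells is known for its part in effector programs, was read by 2 probes that disagreed in sign. The brighter probe (mm9 chr8:87500843-87500902, minus strand) gave 199000 and 109000 units in IELs and 124000 and 183000 units in SPLs. Its scaled log2 levels were 9.32 and 7.97 in IELs and 8.02 and 8.24 in SPLs, again with IEL replicate 1 alone standing high. With a log2 difference of 0.52 (SE 0.52, limma adjusted p = 0.702), this probe showed 1.08 within slide 1 but -0.05 within slide 2.
The second Junb probe (mm9 chr8:87500881-87500940) shares 22 of its 60 bases with the first, printed here because both probes read the same stretch of the transcript: ttcgtgtctaaagtctatttta. It gave 115000 and 87800 units in IELs and 146000 and 215000 units in SPLs. It was thus dimmer than the first probe in both IEL samples but brighter in both SPL samples. Its scaled log2 levels were 8.52 and 7.66 in IELs and 8.26 and 8.47 in SPLs, with overlapping groups. Here the log2 difference was -0.27 (SE 0.37, limma adjusted p = 0.773). With the mean of the 2 probes the log2 difference was 0.12 (limma adjusted p = 0.918). A direction for Junb was therefore not settled by these arrays.

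Atf3, a stress-responsive member of the ATF/CREB family that dimerizes with JUN proteins, followed neither tissue. Its intensities were 943 and 681 units in IELs and 887 and 2000 units in SPLs. The scaled log2 levels were 1.60 and 0.65 in IELs and 0.89 and 1.73 in SPLs. Both arrays of slide 1 stood above both arrays of slide 2, and within each slide the IEL sample was the lower one, by -0.13 on slide 1 and -0.24 on slide 2. The log2 difference was -0.19 (SE 0.48, limma adjusted p = 0.886).

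**Figure D2:**
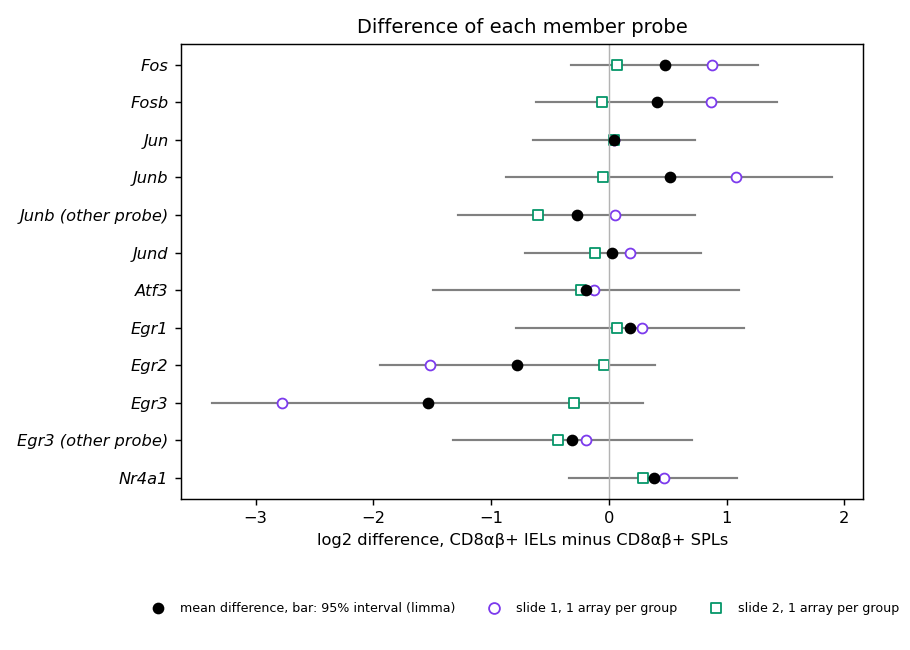
Log2 difference of each member probe, IELs minus SPLs. Filled points are the mean of 2 samples per group with the 95% interval of the limma fit, open circles the single pair of arrays on slide 1 and open squares the pair on slide 2. All 12 intervals include 0. The slide 1 values of Fos, Fosb, Egr2 and the brighter Junb and Egr3 probes lie farther from 0 than the slide 2 values. For Atf3 and for the second Junb and Egr3 probes the slide 2 values lie farther from 0.

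The EGR genes did not share a direction. Egr1, the zinc-finger factor most used as a readout of MAP kinase signalling, gave 4870 and 4210 units in IELs and 4410 and 7770 units in SPLs. Its scaled log2 levels were 3.96 and 3.28 in IELs and 3.20 and 3.68 in SPLs. The groups overlapped, with a log2 difference of 0.18 (SE 0.36, limma adjusted p = 0.849).

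Egr2, which with Egr3 is known for restraining T cell activation and for its induction by antigen receptor signals, was lower in both IEL samples. Its probe (mm9 chr10:67004758-67004817, plus strand, 10 spots per array) gave 586 and 1610 units in IELs and 1820 and 3240 units in SPLs. The scaled log2 levels were 0.91 and 1.88 in IELs and 1.92 and 2.42 in SPLs, so that IEL replicate 2 fell just short of SPL replicate 1. The log2 difference was -0.78 (SE 0.43, limma adjusted p = 0.634), with a 95% interval of -1.94 to 0.39. Nearly all of it came from slide 1, where it was -1.52, against -0.04 on slide 2. The 10 repeat spots of the probe did not overlap between IEL replicate 1 (517 to 628 units) and IEL replicate 2 (1440 to 1760 units), intensities that are not scaled between arrays, and the spots of 1 array share its sample.

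Egr3, by its brighter probe, had the largest difference of the 10 genes in the scaling used here. With normexp background correction Junb (0.95), Fos (0.94) and Nr4a1 (0.86) were farther from 0 than Egr3 (-0.85), and without IEL replicate 1 Atf3 was as low as Egr3 (-0.66). Its brighter probe (mm9 chr14:70481979-70482038, plus strand, assigned to the transcript AK141603) gave 27.4 and 129 units in IELs and 175 and 366 units in SPLs. The scaled log2 levels were -3.51 and -1.75 in IELs and -1.46 and -0.72 in SPLs, in the same order of samples as for Egr2. The mean was 2.91-fold higher in SPLs, a log2 difference of -1.54 (SE 0.68, limma adjusted p = 0.634) with a 95% interval of -3.37 to 0.29. It was -2.78 on slide 1 and -0.30 on slide 2. Over all tested probes 6.42% were at least 2-fold lower and 6.43% at least 2-fold higher in IELs, and of the 12 member probes 1 was among the former, this one, and 0 among the latter.
The second Egr3 probe (mm9 chr14:70478827-70478886, plus strand), assigned to the RefSeq transcript, was dim and was not well above background in IEL replicate 1. Its intensities were 5.38 and 10.6 units in IELs and 15.8 and 11.9 units in SPLs. Its log2 difference was -0.31 (SE 0.38, limma adjusted p = 0.748), the same sign as the brighter probe but smaller, and its groups overlapped.

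Nr4a1, which encodes NUR77 and is widely used as a reporter of T cell receptor signal strength, was the only gene besides Fos with both IELs above both SPLs. Its probe (mm9 chr15:101105071-101105130, plus strand) gave 49300 and 52900 units in IELs and 47800 and 69200 units in SPLs. The scaled log2 levels were 7.30 and 6.93 in IELs and 6.64 and 6.84 in SPLs. The log2 difference was 0.38 (SE 0.27, limma adjusted p = 0.637), with a 95% interval of -0.34 to 1.09. It was similar on both slides, 0.47 on slide 1 and 0.29 on slide 2, but was -0.17 without scaling between arrays and 0.86 with normexp. It was 0.19 when IEL replicate 1 was left out and 0.57 when IEL replicate 2 was.

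**Figure D3:**
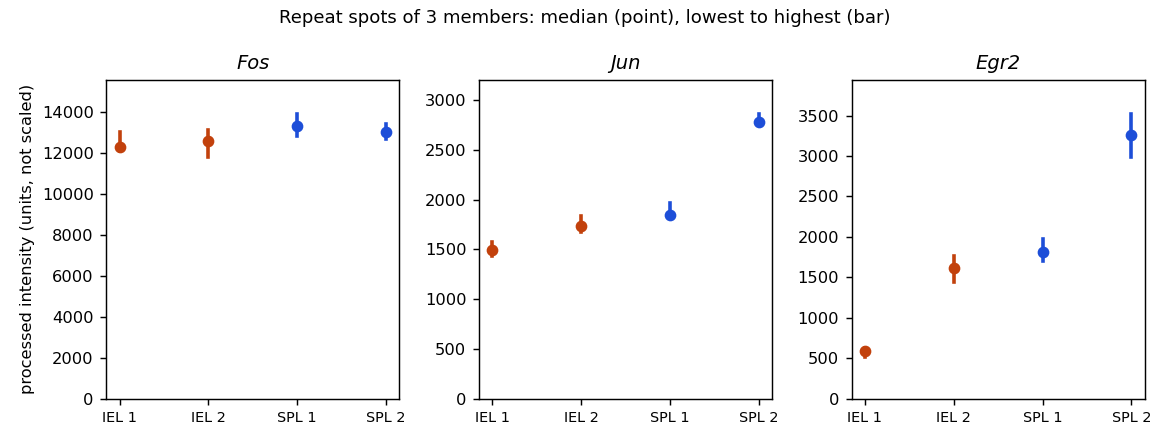
Processed intensity of the repeat spots of Fos, Jun and Egr2 on each array, in scanner units that are not scaled between arrays, with 7 to 10 spots per point. Points are medians and bars run from the lowest to the highest spot used. Fos spans 11800 to 13900 units over all arrays, whereas Egr2 runs from 517 units in IEL replicate 1 to 3520 units in SPL replicate 2.

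Because scaling moved the sign for several genes, each member was also set against Fos on the same array, where a factor common to the whole array cancels. The log2 distance of Egr2 from Fos was -4.40 and -2.97 in IELs and -2.86 and -2.00 in SPLs. That of Egr3 was -8.82 and -6.61 in IELs and -6.24 and -5.15 in SPLs. Their lower position relative to Fos in both IELs follows from the separate orders of Fos, Egr2 and Egr3 given above, and only its size is added here. Jun and Jund, whose own groups overlapped, lay lower relative to Fos in both IELs, by a mean of -0.43 and -0.44. Their own log2 differences were 0.04 and 0.03 and that of Fos was 0.48, so most of these distances is the Fos term. The share of all probes that separate on this measure was not computed. Junb, Fosb, Egr1, Atf3 and Nr4a1 overlapped between the groups on this measure. These distances show unequal change within the arrays and do not say which of the 2 genes changed.

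Leaving out 1 sample showed how much of the pattern belonged to IEL replicate 1. Without it, the median over the 10 genes was -0.16, and the log2 differences of Fosb, Jun, Junb, Jund and Egr1 turned to -0.05, -0.09, -0.16, -0.20 and -0.17. Egr2 and Egr3 kept their direction without IEL replicate 1, at -0.29 and -0.66. Without IEL replicate 2, which leaves IEL replicate 1 alone in its group and lends it the spread of the SPLs, limma called 2387 probes higher (8.55%) and 3063 lower (11%). The brighter Junb probe (log2 difference 1.19, limma adjusted p = 0.0384) was then called higher and the brighter Egr3 probe (-2.42, limma adjusted p = 0.0192) lower. Egr2 (-1.27, limma adjusted p = 0.0529) and Fosb (0.86, limma adjusted p = 0.0692) were just above the threshold of 0.05. The second Junb probe, at 0.16, was not called (limma adjusted p = 0.692).

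**Figure D4:**
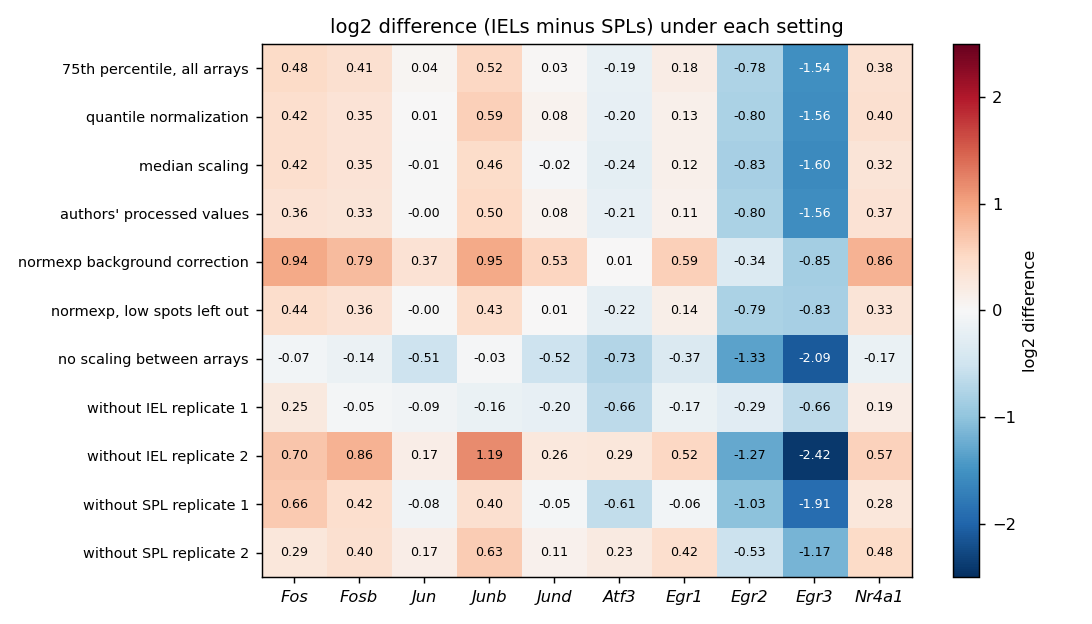
Log2 difference of each gene (columns, IELs minus SPLs) under the scaling used here (top row), under other normalizations and background corrections, and with 1 sample left out. Red is higher and blue lower in IELs. Egr2 and Egr3 are negative in every row shown, while 7 genes change from positive to negative when the arrays are not scaled.

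Other genes of the same families were read from a fixed list of 18, all measured. Of these, 13 were higher and 5 lower in the mean of the IELs, with a median log2 difference of 0.62. Without overlap, 8 genes (44.4%) lay above and 1 (5.56%) below, against 24.4% and 24.6% of all tested probes. None passed the limma threshold. Nr4a2, the NR4A receptor also known as NURR1, had scaled log2 levels of 7.79 and 6.15 in IELs and 5.17 and 4.72 in SPLs. Its log2 difference was 2.02 (SE 0.62, limma adjusted p = 0.634), and the pairs within slides gave 3.07 (slide 1) and 0.98 (slide 2). Nr4a3, the third receptor of the family, had levels of 2.28 and 0.83 in IELs and -0.04 and 0.04 in SPLs, a log2 difference of 1.55 (SE 0.54, limma adjusted p = 0.634). After scaling, each of the NR4A receptors had both IELs above both SPLs, an order that 24.4% of all tested probes had and that Nr4a1 did not have without scaling, and the values of Nr4a2 and Nr4a3 were larger than that of Nr4a1. The difference between the receptors was not tested. In this list the largest rise was that of Jdp2, a JUN-binding repressor, at 2.35, and the largest fall that of Batf3, a basic leucine zipper factor, at -0.36, both at an adjusted p above the threshold (0.634 and 0.707). Without IEL replicate 1 the median of the list was 0.03, without IEL replicate 2 it was 1.25, without SPL replicate 1 it was 0.29 and without SPL replicate 2 it was 0.95.

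Of the 33 measured other immediate-early genes, 17 were higher and 16 lower, with a median log2 difference of 0.01 that ran from -0.1 to 0.29 with a sample left out. Rgs1, a regulator of G protein signalling, had the largest rise (2.98, limma adjusted p = 0.634), with scaled log2 levels of 7.60 and 5.78 in IELs and 4.59 and 2.82 in SPLs. Ptgs2, which encodes the inducible cyclooxygenase, had the lowest fitted difference (-1.60, limma adjusted p = 0.634), but it was not well above background in IEL replicate 1, so that this fitted value and its rank are no measured size. Dusp1, the MAP kinase phosphatase that is often induced during tissue dissociation, had levels of 5.38 and 3.98 in IELs and 3.81 and 4.23 in SPLs, with overlapping groups and a log2 difference of 0.66. Ier2 was close to level, at 3.98 and 3.92 in IELs and 4.03 and 4.13 in SPLs, a log2 difference of -0.13.

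Of the 27 measured upstream regulators, 10 were higher and 17 lower, with a median log2 difference of -0.16. Crem, a cyclic AMP responsive factor, had the largest rise (3.1, limma adjusted p = 0.634), at 6.43 and 3.98 in IELs and 2.63 and 1.57 in SPLs. Mef2c, a factor expressed in B and myeloid cells, had the lowest fitted difference (-3.34, limma adjusted p = 0.634). It was not well above background in IEL replicate 1, the array on which B cell and erythroid markers were low, so that this fitted value and its rank are no measured size, and its level was -1.46 to -1.04 on the other arrays.

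Of the 21 measured co-regulators and targets, 13 were higher and 8 lower, with a median of 0.32 that was 0.01 without IEL replicate 1 and 0.9 without IEL replicate 2. Nab2, a co-repressor that EGR factors induce and that binds them in return, had the largest fall (-1.11, limma adjusted p = 0.634). Its scaled log2 levels were -2.11 and -0.86 in IELs and -0.31 and -0.43 in SPLs. This was the direction of Egr2 and Egr3, whereas 13 of the 21 genes in the list went the other way. Pdcd1, which encodes the inhibitory receptor PD-1, had the largest rise (2.98, limma adjusted p = 0.634). Cd69, an early activation antigen that resident T cells keep, was at 5.02 and 4.75 in IELs and 4.84 and 5.13 in SPLs, a log2 difference of -0.10 with overlapping groups.

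Heat shock genes, which tend to rise with the AP-1 genes when tissue is dissociated with warmth, were read from a list of 14. Of these, 3 were higher and 11 lower in the mean of the IELs, with a median log2 difference of -0.24 that was 0 without SPL replicate 2 and -0.49 without SPL replicate 1. Without overlap, 0 lay above and 3 (21.4%) below, where 24.4% of all tested probes lay above and 24.6% below. Hspa1a, the inducible HSP70 gene, had scaled log2 levels of 4.28 and 4.19 in IELs and 3.99 and 5.69 in SPLs, so that SPL replicate 2 alone was high. Hspa5, an endoplasmic reticulum chaperone, had the largest rise (0.64) and Hspb1, a small heat shock protein gene, the largest fall (-0.75), both at a limma adjusted p above the threshold (0.691 and 0.634). The part of the isolation procedure in the levels of the immediate-early genes was not tested, since no sample was processed without it.

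**Figure D5:**
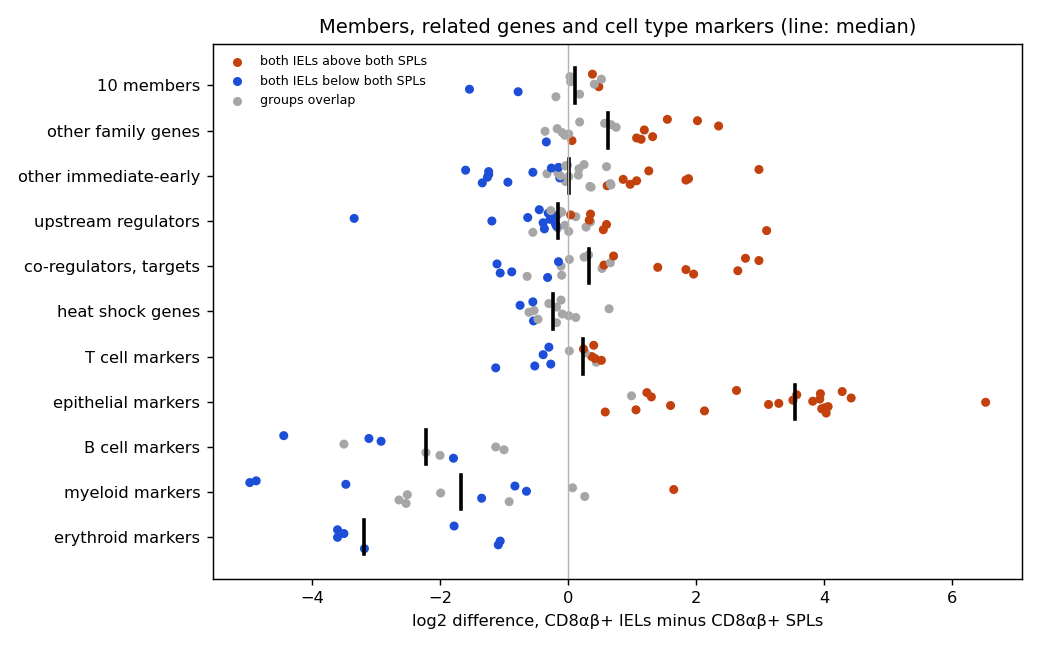
Log2 difference (IELs minus SPLs) of the 10 members, of the genes in the related lists and of cell type markers, with 1 point per gene. Orange points have both IELs above both SPLs, blue points both below, and grey points overlap, and black lines are medians. The members center at 0.11, the other genes of their families at 0.62, the heat shock genes at -0.24, the epithelial markers at 3.54 and the erythroid markers at -3.18. Without IEL replicate 1 the median of the erythroid markers was -0.47 and that of the epithelial markers 2.27.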

How the data were processed

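RNA of 4 samples (2 CD8αβ+ IELs and 2 CD8αβ+ SPLs) was read on Agilent 1-color arrays. The authors deposited scanner output of Feature Extraction (10.7.3.1 per the file headers, 10.7.1.1 in the submitters' processing notes). Each deposited array holds 45018 spots with an intensity from which, per the file headers, the software subtracted a background, and no normalization between arrays was applied to it. A second deposited table gives log2 values with equal extremes on every array (0.53 and 18.84), as quantile normalization leaves them. The paper's methods name another chip type and no normalization.

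Here, log2 of the processed intensity minus each array's 75th percentile over 43379 spots that are not controls was used. Spots marked as outliers (98 to 179 per array) were left out, 0 spots were saturated, and the repeat spots of 41174 probes were averaged. To be tested, a probe had to be well above background on both arrays of IELs or on both arrays of SPLs. From 63.6% to 69.6% of probes per array were well above background. The number of arrays limits the precision. Groups were compared by limma 3.58.1 in R 4.3.3, with 2 residual degrees of freedom, no block and Benjamini-Hochberg adjustment at 0.05. Moderating the variances over all tested probes gave 4.36 degrees of freedom for the member probes, which the 95% intervals use. A gene with several probes is represented by the brightest tested one, that with the highest mean log2 level over the 4 arrays. Positions are on mm9 as in the files, promoters on GRCm38.p6.

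The members and lists were chosen with earlier results of these data known. The genes named are all members, and from each related list the largest rise and fall and any call, beside Cd69, Nab2, Dusp1, Ier2, Hspa1a, Nr4a2 and Nr4a3. Alternatives covered normalization, background correction, filters, marked spots, variance trend, test, blocks, probe choice and each sample left out.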

Additional observations from a re-analysis of the deposited data

How the results depend on the processing

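Of 19 alternatives, 11 moved every member value, by another scaling or background correction or by leaving out a sample, while the rest (other tests, blocks, filters, marked spots, probe choice) left most member values as they were. Under those 11, Egr2 and Egr3 stayed negative (-1.33 to -0.29 and -2.42 to -0.66), and 88 of 110 member values kept their direction. The precision is limited by 2 arrays per group, and the second Egr3 probe lay close to background. The count of called probes was 0 in both directions except without IEL replicate 2, where it was 2387 higher and 3063 lower, so that over the samples left out in turn it ran from 0 to 2387 and from 0 to 3063. With a sample left out, the median over the 10 genes ran from -0.16 to 0.4, Fos from 0.25 to 0.7, Nr4a1 from 0.19 to 0.57, Egr2 from -1.27 to -0.29, Fosb from -0.05 to 0.86, Jun from -0.09 to 0.17, Junb from -0.16 to 1.19, Jund from -0.2 to 0.26, Egr1 from -0.17 to 0.52, Egr3 from -2.42 to -0.66 and Atf3 from -0.66 to 0.29; a lone sample in a group is assumed to vary like the other group.

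Scaling by the median gave -0.01 for Jun and -0.02 for Jund. Jun was also -0.0041 with the authors' processed values and -0.0028 with normexp fitted without spots below their local background. Normexp on all spots gave 0.94 for Fos, 0.86 for Nr4a1, 0.01 for Atf3 and 0.56 for the median of the 10 genes, while it moved the median of all probes to -0.38. With no scaling between arrays, an alternative chosen after seeing the data that moved the median of all probes to -0.55, the median of the 10 genes was -0.44, and Fos was -0.07, Fosb -0.14, Jun -0.51, Junb -0.03, Jund -0.52, Egr1 -0.37 and Nr4a1 -0.17. The shares of probes higher in IELs were 31.7% under normexp and 14.6% without scaling, against 49.9% in the scaling used, and 64.3% with normexp without the low spots, whose median was 0.15. The causes of these shifts were not tested, apart from the array factors that scaling removes.

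Replicate numbers gave no pairing of samples (correlation of the deviations of same-numbered arrays -0.025), and with the replicate number as a block 0 probes were called, Egr3 had an adjusted p of 0.491 and Fos of 0.751. With the slide as a block 0 probes were called as well, and both Egr2 and Egr3 had an adjusted p of 0.597.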
